A study of Mus musculus with 12 samples.

Results

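Birc6 encodes BRUCE, a very large inhibitor of apoptosis protein (IAP), and was the target of the knockdown in these cells. The genes described here are Birc6, the IAP genes Birc2, Birc3, Birc5 and Xiap, the IAP antagonists Diablo and Htra2, and Casp9. They were chosen by symbol, without regard to their levels, and are 8 of the 24062 gene symbols in the count table. All 8 passed the filter on low counts.

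IAPs carry a BIR domain, a zinc-binding fold through which several of them hold caspases or other death signals in check. XIAP binds and blocks caspase-9 and the executioner caspases. The products of Birc2 and Birc3, cIAP1 and cIAP2, are ubiquitin ligases that act mainly at TNF receptors and in NF-kappaB signalling. Survivin, the product of Birc5, works largely in mitosis as part of the chromosomal passenger complex. BRUCE joins a BIR domain to a ubiquitin-conjugating domain. SMAC (Diablo) and HTRA2 are released from mitochondria during apoptosis and displace caspases from IAPs, while caspase-9 is activated on the apoptosome by cytochrome c and APAF1.

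The cells were mouse embryonic fibroblasts (MEFs) that stably expressed an shRNA against Renilla luciferase (shRenilla, the control) or shBruce#1 (shBruce below), from a retroviral vector with a viral promoter, under G418 selection. Each line was kept in full medium (FM) or starved for 2 h without serum and amino acids (Starv), with 3 libraries in each of the 4 conditions. There was a single line for each shRNA, so other differences between the lines cannot be told apart from the knockdown. The labels do not say whether replicates were separate cultures, and p-values measure the spread between these libraries, which may be technical.

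The shRNA is shown first because it defines the lines. Its guide is given 5′ to 3′ with the seed, bases 2 to 8, in capitals, followed by the matching site in Birc6 with the seed match in capitals and by the same site in capitals with its flanks.
shBruce#1 guide: tTTTAAACcatctttgagctgt
Birc6 site: acagctcaaagatgGTTTAAAa
Birc6 site with flanks: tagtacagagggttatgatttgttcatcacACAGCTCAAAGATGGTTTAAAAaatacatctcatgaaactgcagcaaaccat
The site lies on the plus strand of GRCm38 at chr17:74548787-74548808, in the coding sequence in exon 3 of the 73 exons of the longest Birc6 transcript. Of the 11587 tested genes with a transcript, only Birc6 held the whole site. Among the other members, Xiap held the closest place, with 16 of the 22 bases, while the rest had at most 14 matching bases. Xiap was also the only other member with a match to the seed. Both places are shown because Xiap is among the genes that differed between the lines below. In the first line, capitals mark the bases that match the Birc6 site, and in the second they mark the seed match.
Xiap place most like the site: ACAGgaCAAAaAgGtTTgAAAA
Xiap seed match: tttcatttttttctGTTTAAAg
They lie on the plus strand at chrX:42105674-42105695 and chrX:42105783-42105804, both in the 3′ UTR in the last exon, exon 6, and the closest place does not hold the seed match. A seed match alone is common, being present in 24.9% of the tested genes with a transcript. In FM, the median log2 difference between the lines was -0.14 over the 2888 genes with a seed match and 0.05 over the 8699 genes without one. In Starv, these medians were -0.23 and 0.07. Transcripts with a seed match were longer, with a median of 4534 against 3065 bases. Once the dependence of each library on transcript length and GC content had been taken out, the medians were -0.02 and -0.0038 in FM. In Starv they were then -0.04 and -0.03. Seed matches and length go together, so this step cannot separate them, and an effect of the seed was not tested.

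Total counts ranged from 7717265 in shBruce Starv replicate 1 to 18510540 in shRenilla FM replicate 1, and the next lowest was 13200393. Values are normalized counts, that is, counts scaled to a common library size by the TMM method. The libraries differed in how strongly long transcripts were represented. The median log2 deviation of the 682 genes with transcripts of at least 8000 bases, minus that of the 2470 genes with at most 2000 bases, ranged from -0.06 to 0.44 in shRenilla FM, from 0.06 to 0.72 in shRenilla Starv, from -0.36 to -0.24 in shBruce FM and from -0.82 to 0.09 in shBruce Starv. This measure is called the length trend below. Birc6 (15768 bases) and Xiap (6834 bases) have the longest transcripts among the members, and those of the others have 2512 to 3897 bases. All 10 fibroblast markers were counted, and their summed level was 8422 to 11828 CPM, counts scaled to equal library size. Epithelial markers together stayed at or under 1.04 CPM, and the other lists at or under 4.54, apart from neural markers at 29.1 to 64.8, which were not zero in any condition. Haematopoietic markers were at 1.29 to 1.43 in shBruce Starv and at 0.253 to 0.910 in the other conditions, with Cd3e at 0 throughout.

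Per kb of exon, the control cells contained most Birc5 and least Birc3. In such bulk samples, fewer cells expressing a gene and less RNA per cell cannot be told apart. In shRenilla FM, Birc5 stood at 1035 ± 45.9 (SD, n = 3) normalized counts per kb and Htra2 at 506 ± 39.6. They were followed by Birc6 at 168 ± 36.6, Xiap at 158 ± 36.2, Diablo at 109.6 ± 6.74, Birc2 at 93.2 ± 9.19, Casp9 at 32.5 ± 1.90 and Birc3 at 21.9 ± 2.09. The libraries of neighbours in this order did not overlap, except those of Birc6 and Xiap and those of Xiap and Diablo. Birc5 made up 48.7% ± 2.05 (SD, n = 3) of the summed level per kb of the 8 genes and Birc6 7.93% ± 1.73.

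In shBruce FM, Birc6 moved from the third place to the sixth at 49.96 ± 3.63 (SD, n = 3) normalized counts per kb, below Birc2 at 76.1 ± 3.56, and its share of the summed level lay between 2.10% and 2.75%. In Starv, it came after Xiap in shRenilla at 159 ± 43.7, and in shBruce only Birc3 was lower than its 40.1 ± 11.2. Birc5 and Htra2 held the first places and Birc3 the last in all 4 conditions. In shBruce Starv, the libraries of Diablo, Xiap, Birc2 and Casp9 overlapped each with the next. The same order was found in all 4 conditions when the length of the longest transcript was used in place of all exons, although the levels themselves shifted.

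**Figure D1:**
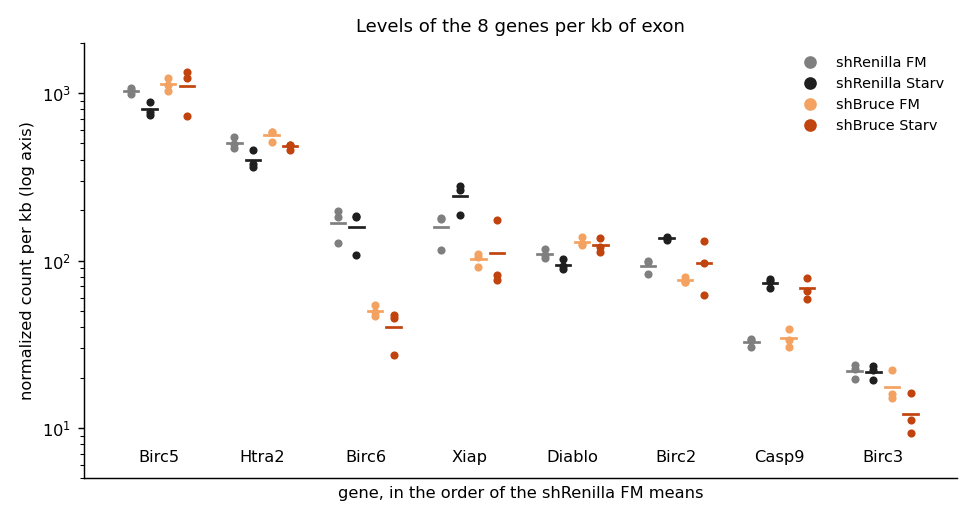
Normalized counts per kb of exon of the 8 genes (log axis), with a point for each library and a bar at the mean of each condition. Birc5 and Htra2 are highest and Birc3 lowest in every condition, and Birc6 drops in FM from about the level of Xiap in the shRenilla line to below Birc2 in the shBruce line.

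Birc6 (ENSMUSG00000024073.16) occupies positions 74528295 to 74703356 of chromosome 17 of GRCm38, plus strand. Its normalized counts were 4682, 3273 and 5061 in the shRenilla FM libraries and 4759, 4712 and 2787 in shRenilla Starv. They were 1207, 1265 and 1390.4 in shBruce FM and 1175, 703 and 1226 in shBruce Starv. Every shBruce library was thus below every shRenilla library, in FM and in Starv. Among the tested genes, 4.73% had libraries of the lines that did not overlap over both media, and Birc6 was the only member among them.

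The reading depth behind these values was 582 to 5964 Birc6 reads per library. Averaged over media, Birc6 was at 27.4% of its shRenilla level (95% confidence interval 21.1 to 35.6), which is -1.87 on the log2 scale (standard error 0.18). The adjusted p was 9.6e-04 (edgeR's quasi-likelihood test, Benjamini-Hochberg adjustment over all genes tested). The exact permutation test within media gave a two-sided p of 0.005, the smallest that its 400 assignments allow. In FM, 29.7% remained (20.5 to 42.9, adjusted p = 0.0627) and in Starv 25.3% (17.4 to 36.7, adjusted p = 0.0186). The FM value missed the threshold of 0.05 with edgeR's joint fit and passed it with DESeq2's Wald test, without a filter on low counts and with the FM libraries alone, but not with limma-voom, DESeq2's size factors in edgeR, a minimum of 10 counts in every library or the replicate block. The Starv value no longer passed without shRenilla Starv replicate 1 (log2 fold change -1.86) or without shRenilla Starv replicate 2 (-1.87).

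The depth of the knockdown did not differ detectably between media. The interaction of line and medium was -0.23 on the log2 scale (95% confidence interval -0.96 to 0.50, adjusted p = 0.860), which leaves room for a sizeable difference in either direction. Starvation itself left Birc6 at 94.2% of the FM level in shRenilla (66.0 to 134.5, adjusted p = 0.836) and at 80.3% in shBruce (55.8 to 115, adjusted p = 0.367).

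In 3 of the 4 conditions, the library with the lowest length trend also had the lowest Birc6 count, and shBruce FM was the exception. The lowest shRenilla FM library, replicate 2, had a length trend of -0.06 against 0.28 and 0.44 in the others, and the lowest shRenilla Starv library, replicate 3, had 0.06 against 0.72 and 0.70. Of 3 libraries with similar length trends, picked after the values were seen, shBruce Starv replicate 3 (0.09) had 1226 normalized counts. In the same medium, shRenilla Starv replicate 3 had 2787, and in the other medium shRenilla FM replicate 2 had 3273. With the trends against length and GC content removed, 37.3% of Birc6 remained in FM (adjusted p = 2.0e-04), 36.3% in Starv (adjusted p = 1.6e-04) and 36.8% over both media (adjusted p = 3.1e-06). The interaction was then -0.04 (adjusted p = 0.951). The part of the length trend in the Birc6 difference was not tested.

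**Figure D2:**
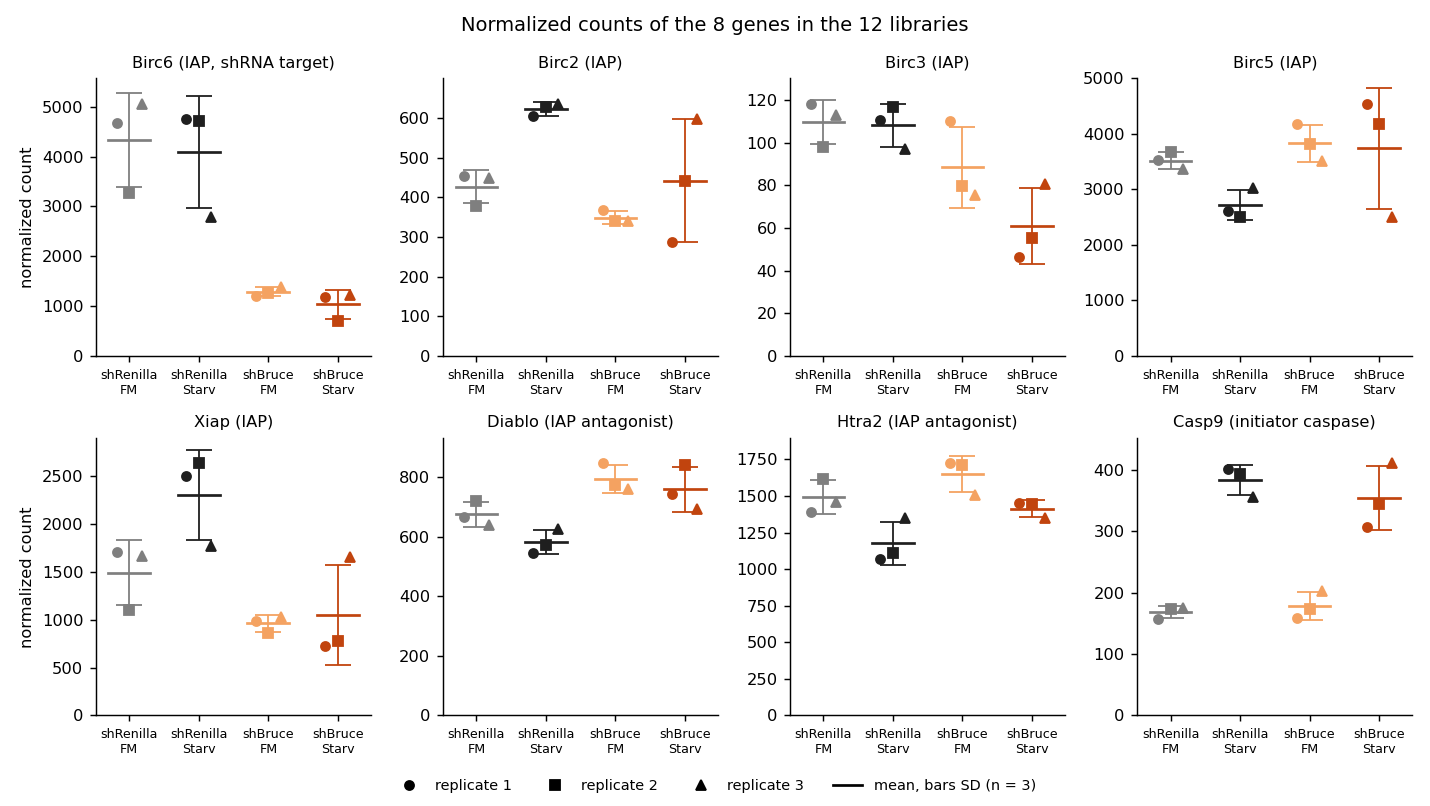
Normalized counts of the 8 genes in the 12 libraries (each axis starts at 0), with replicates 1, 2 and 3 as circles, squares and triangles, the mean as a line and the SD as a bar (n = 3). Birc6 separates the lines in both media, Casp9 separates the media in both lines, and Xiap and Birc2 vary most among the shBruce Starv libraries.

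The remaining IAP genes showed smaller differences between the lines, and none passed the test in FM. There, 0 of the 12154 tested genes (0%) passed with edgeR, 1750 had an unadjusted p under 0.05, and limma-voom and DESeq2's Wald test called 0 and 76. In Starv, 4 of the 8 members passed, where 23.9% of all tested genes did: Birc6, Xiap and Birc3 were lower in shBruce and Diablo was higher. Averaged over media, 5 members passed, against 32.1% of all genes, with Birc2 added on the lower side. In the joint fit, all 4 conditions share their estimate of the spread, so the numbers of calls in FM and Starv depend on it. With only the groups compared, 597 genes and 1 member passed in FM, and 0 genes and 0 members in Starv. The Starv comparison of the joint fit also rests on few libraries. Without shRenilla Starv replicate 1 or replicate 2, 0 members and 0 genes passed. Without shBruce Starv replicate 1, 1 member and 573 genes passed, and without shBruce Starv replicate 2, 1 member and 15 genes.

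Xiap (ENSMUSG00000025860.15) occupies positions 42059679 to 42109656 of chromosome X, plus strand. Its normalized counts were 1708, 1098 and 1672 in shRenilla FM and 987, 867 and 1032 in shBruce FM. After starvation they were 2502, 2637 and 1767 in shRenilla and 723, 780.0 and 1658 in shBruce. The lines did not overlap within either medium, as was true of 33.4% of all tested genes in FM and of 34.9% in Starv. The third shBruce Starv library, however, stood far above the other shBruce libraries and close to shRenilla Starv replicate 3.

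Xiap fell in shBruce by 1.12 on the log2 scale in Starv (standard error 0.28, adjusted p = 0.0246) and by 0.88 averaged over media (adjusted p = 0.0125), whereas in FM the value was -0.63 (adjusted p = 0.333). Across all 12 libraries its counts followed the length trend closely: the 3 libraries with the lowest trend (-0.82 to -0.36) had 723 to 867 and the pair with the highest (0.70 and 0.72) had 2502 and 2637. Among libraries with similar trends, picked after the values were seen, shBruce Starv replicate 3 (0.09) had 1658. In the same medium, shRenilla Starv replicate 3 (0.06) had 1767, and in the other medium shRenilla FM replicate 2 (-0.06) had 1098. With the trends removed, Xiap was at 83.8% of shRenilla in FM (adjusted p = 0.631), at 65.4% in Starv (adjusted p = 0.0588) and at 74.0% averaged over media (adjusted p = 0.0465). The part of the length trend, and of the places in its 3′ UTR that resemble the Birc6 site, in the Xiap difference was not tested.

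**Figure D3:**
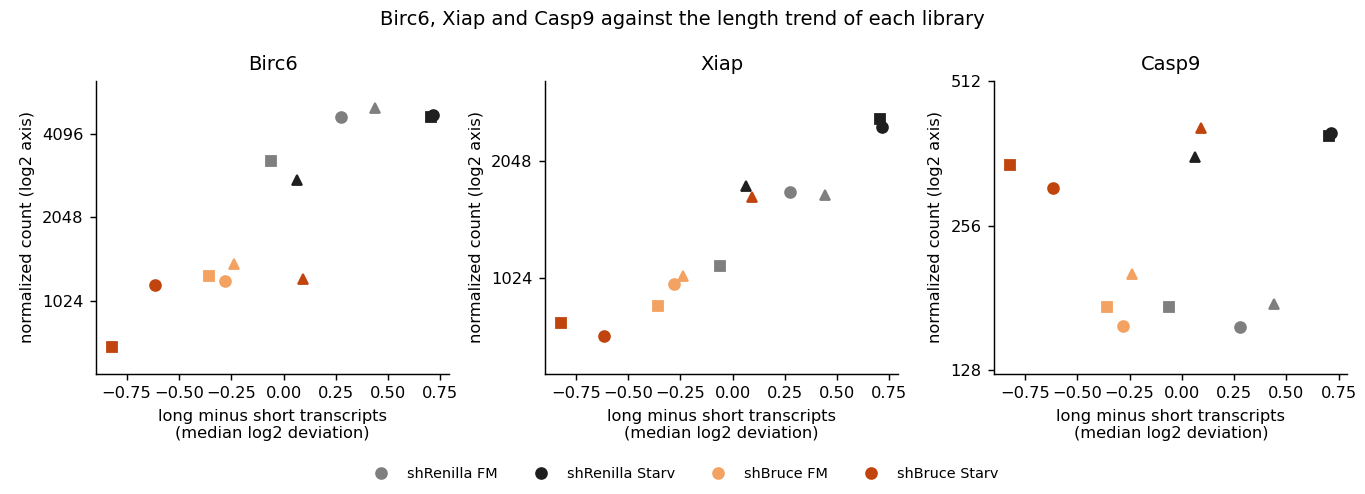
Normalized counts (log2 axis) of Birc6, Xiap and Casp9 against the length trend of each library, the median log2 deviation of long minus short transcripts, with colours for the conditions and circles, squares and triangles for replicates 1, 2 and 3. Xiap is higher in libraries with a higher trend, and Casp9 separates by medium at every trend. Near a trend of 0, Birc6 is lower in shBruce Starv replicate 3 than in the shRenilla libraries there, which come from both media.

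Birc2 and Birc3 are neighbours on the minus strand of chromosome 9. Birc2 (ENSMUSG00000057367.12) spans 7818227 to 7837064 and Birc3 (ENSMUSG00000032000.17) spans 7848699 to 7873186. They are paralogs, and how reads that fit both were counted is not given in the sources used here. Birc3 had few reads, between 23 and 145 per library. Its standard errors between the lines were 0.21 in FM and 0.22 in Starv. Among the members, only those of Birc6 (0.25 in both media) and Xiap (0.28 in both) were larger.

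Birc3 had 118, 98.1 and 113 normalized counts in shRenilla FM and 111, 117 and 97.1 in shRenilla Starv. In shBruce they were 110.4, 79.6 and 75.4 in FM and 46.4, 55.5 and 80.8 in Starv. The 3 starved shBruce libraries were below all starved shRenilla libraries, where 34.9% of all tested genes differed without overlap. The FM libraries of the lines overlapped. Birc3 fell in shBruce by 0.80 in Starv (standard error 0.22, adjusted p = 0.0283) and by 0.56 averaged over media (adjusted p = 0.0191), and was -0.31 in FM (adjusted p = 0.466). With the trends removed, the Starv value was -0.77 (adjusted p = 0.0441). The interaction was -0.48 (adjusted p = 0.806), and the Starv difference passed in 8 of the 12 fits that left out a library.

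Birc2 had 454, 378 and 448 normalized counts in shRenilla FM and 604, 627 and 636 in shRenilla Starv. In shBruce it had 367, 339 and 339 in FM and 287, 441 and 597 in Starv, so that the starved shBruce libraries ran from below all FM libraries to just below the starved shRenilla ones. The line difference averaged over media was -0.39 (adjusted p = 0.0498 from edgeR's test) and was no longer called with the trends removed (-0.26, adjusted p = 0.120). It passed in 2 of the 12 fits that left out a library. Starvation raised Birc2 by 0.45 averaged over lines (standard error 0.14, adjusted p = 0.0241), in a comparison in which 35.2% of all genes passed, and the value was 0.54 in shRenilla (adjusted p = 0.0746) and 0.35 in shBruce (adjusted p = 0.218).

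Within each library, the ratio of Birc2 to Birc3 per kb does not depend on the scaling of that library. It was 4.19, 4.22 and 4.34 in shRenilla FM and 3.64, 4.66 and 4.92 in shBruce FM. After starvation it was 5.96, 5.87 and 7.16 in shRenilla and 6.75, 8.69 and 8.08 in shBruce. All 6 starved libraries were above all 6 FM libraries. This ratio was chosen after the values were seen, and is given as a description.

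Birc5 (ENSMUSG00000017716.15, chromosome 11 from 117849251 to 117855743, plus strand) had 3530.1, 3671 and 3359 normalized counts in shRenilla FM and 2612, 2510.5 and 3022 in shRenilla Starv. It had 4175, 3819 and 3512 in shBruce FM and 4546, 4183 and 2496 in shBruce Starv. Starved shRenilla libraries were below those in FM, as 52.4% of all tested genes differed without overlap in that comparison, whereas shBruce Starv replicate 3 stood far below its fellow replicates. No comparison of Birc5 passed the test with all libraries. The starvation value was -0.37 in shRenilla (adjusted p = 0.179) and -0.04 in shBruce (adjusted p = 0.907), and the line difference averaged over media was 0.29 (adjusted p = 0.0945). Without shBruce Starv replicate 3, the line difference passed both in Starv (0.68, adjusted p = 8.7e-04) and averaged over media (0.40, adjusted p = 0.0015).

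None of the other chromosomal passenger genes, Aurkb, Incenp and Cdca8, passed in FM, in Starv or with starvation in either line. Of 16 G2/M genes, 1 rose with starvation in shRenilla, and 1 rose and 2 fell in shBruce, with medians of -0.12 and -0.18, where 17.0% and 23.0% of all tested genes passed. Nusap1, a spindle protein gene, rose by 0.41 and 0.48, while Plk1 and Cdk1, mitotic kinase genes, fell in shBruce (-0.67 and -0.44). In starved cells, Bub1, a spindle checkpoint gene, and Cenpf, a kinetochore gene, were lower in shBruce (-0.75 and -0.44).

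Of the IAP antagonists, Diablo was higher in shBruce and Htra2 was not called between the lines. Diablo (ENSMUSG00000029433.16, chromosome 5 from 123509765 to 123524176, minus strand) had 667, 721 and 639.8 normalized counts in shRenilla FM and 847, 774 and 759.7 in shBruce FM. After starvation it had 546, 574 and 627 in shRenilla and 745, 842 and 693 in shBruce. All shBruce libraries were above all shRenilla libraries in the same medium. Of all tested genes, 33.4% differed without overlap in FM and 34.9% in Starv. Over both media together, the lines overlapped. It rose in shBruce by 0.38 in Starv (standard error 0.12, adjusted p = 0.0359) and by 0.31 averaged over media (adjusted p = 0.0184), with 0.23 in FM (adjusted p = 0.372). The Starv difference passed in 6 of the 12 fits that left out a library, and with the trends removed it was 0.35 (adjusted p = 0.04999).

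Htra2 (ENSMUSG00000068329.12, chromosome 6 from 83051266 to 83055273, minus strand) had 1390.0, 1618 and 1461.5 normalized counts in shRenilla FM and 1072, 1109 and 1347 in shRenilla Starv. In shBruce it had 1723, 1714 and 1508 in FM and 1449, 1444 and 1349 in Starv. In each line, every starved library was below every FM library, where 52.4% of all tested genes in shRenilla and 30.9% in shBruce differed without overlap. Starvation lowered Htra2 by 0.28 averaged over lines (standard error 0.08, adjusted p = 0.0196), and the values of -0.34 in shRenilla and -0.22 in shBruce did not pass alone (adjusted p = 0.0664 and 0.198). Its line differences were small (0.15 in FM, 0.27 in Starv) and changed sign, to -0.08 and -0.09, when the trends were removed.

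Exons of Htra2 share 753 bases with Aup1 and 535 with Loxl3 on the opposite strand, and those of Diablo share 1326 with B3gnt4, also on the opposite strand. Diablo further shares 1193 exon bases with Gm49027, a protein-coding gene on its own strand, and 122 with AC157931.1 on the opposite strand. Exons of Birc6 share 611 bases with the antisense gene Gm26749. Gm49027, AC157931.1 and Gm26749 are not among the symbols of the count table. The annotation and strand setting of the counting are not given in the sources used here, so reads from these stretches cannot be assigned with certainty. B3gnt4 had at most 6.68 normalized counts on average in any condition, while Aup1 had 1258 to 1935 and Loxl3 735 to 1025, of the same order as Htra2. Like Htra2, both had lower means in Starv than in FM. In shRenilla, Aup1 went from 1705 to 1258 and Loxl3 from 1025 to 735. In shBruce, Aup1 went from 1935 to 1720 and Loxl3 from 899 to 780, with 551 to 1202 among its starved libraries. The part of such reads in the Htra2 values was not tested.

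Casp9 was the member with the clearest response to starvation. With edgeR's joint fit, it was the only member called in shRenilla, as against 17.0% of all genes, and the only one in shBruce, as against 23.0%. The shRenilla count depends on the fit. With that line's libraries alone, 5 members and 5013 genes passed, and with DESeq2's Wald test 3 members and 2564 genes. In shBruce, 1 member and 956 genes passed with that line's libraries alone. Casp9 (ENSMUSG00000028914.13) occupies positions 141793612 to 141815976 of chromosome 4, plus strand. Its normalized counts were 157.5, 173.5 and 175.6 in shRenilla FM and 401, 394 and 356 in shRenilla Starv. In shBruce they were 158, 174 and 203 in FM and 307, 344 and 410.5 in Starv.

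All 6 starved libraries were above all 6 FM libraries, as was true of 15.8% of tested genes in either direction. Casp9 rose to 227% of the FM level in shRenilla (95% confidence interval 183 to 282, adjusted p = 1.5e-04) and to 199% in shBruce (159.5 to 248, adjusted p = 4.9e-04). The exact permutation test within lines gave a two-sided p of 0.005, the smallest possible. The call held in both lines in all 12 fits that left out a library, with log2 fold changes of 1.13 to 1.23 in shRenilla and 0.87 to 1.09 in shBruce. With the trends removed, the values were 1.21 and 1.06. Between the lines, Casp9 was at 106% in FM (84.7 to 132) and at 92.6% in Starv (74.8 to 115), neither of which passed. Its exons share 94 bases each with Ctrc, which had no reads, and Cela2a, which had at most 2.94 normalized counts on average.

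For no member did the response to starvation pass a test of difference between the lines. The interaction was called for 0 of the 12154 genes (0%) by edgeR, by limma-voom and by DESeq2, with 474 genes at an unadjusted p under 0.05 in edgeR, and the smallest unadjusted p among the members was 0.136 (Birc3). In shBruce, 2 members had starved and FM libraries that did not overlap, Casp9 and Htra2, against 30.9% of all tested genes, and in shRenilla 6 did, against 52.4%. The 3 starved shBruce libraries were far apart from each other, as the per-library values of Birc2, Xiap and Birc5 show.

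**Figure D4:**
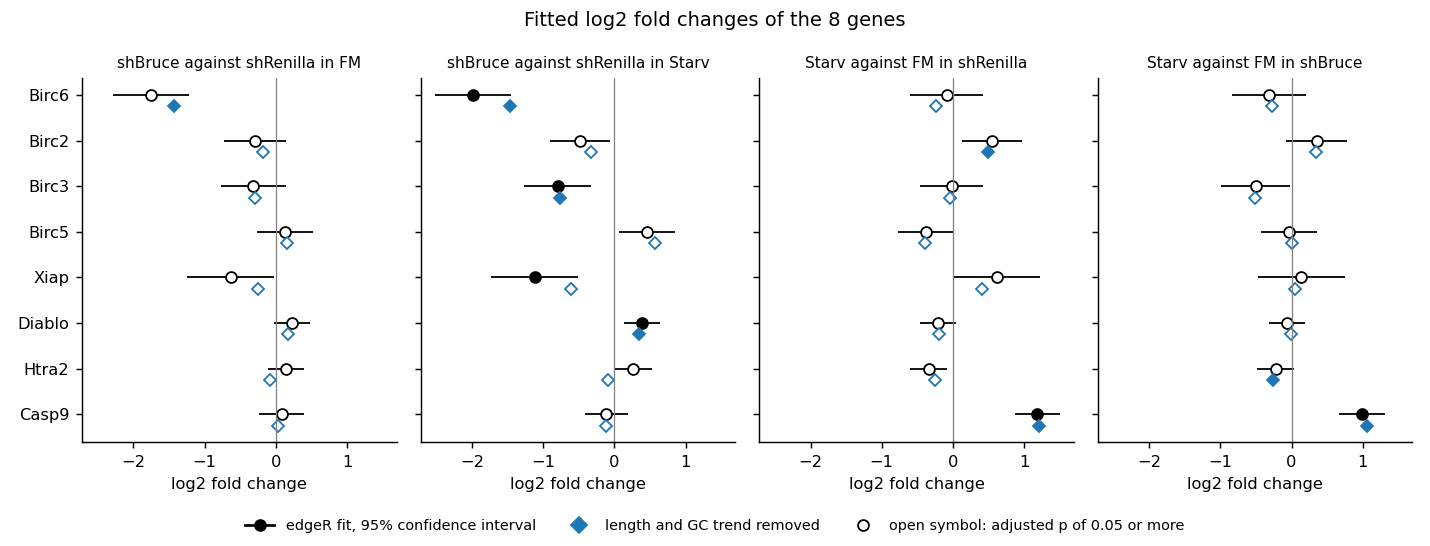
Log2 fold changes of the 8 genes in the 4 comparisons, as circles with 95% confidence intervals from edgeR's joint fit and as diamonds after taking out the dependence of each library on transcript length and GC content (filled where the adjusted p is under 0.05). Removing the trends moves Birc6 and Xiap towards 0 in the line comparisons, turns the sign of Htra2 there and leaves the starvation response of Casp9 in place.

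Besides Casp9, the apoptosis genes Bmf, Bbc3 and Casp2 rose with starvation in both lines. In these comparisons, 9.69% of all genes rose and 7.27% fell with starvation in shRenilla, and 12.4% and 10.6% in shBruce. Of the 71 tested genes in the pathway lists, 6 rose and 8 fell in shRenilla, and 7 rose and 13 fell in shBruce. These lists also hold G2/M, NF-kappaB and other genes, and genes that rose were no more frequent in them than among all genes. All 14 genes called in shRenilla were also called in shBruce with the same sign, which were 70.0% of those called in shBruce. With the trends removed, all of these were still called, and 20 and 27 genes passed.

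Of the 13 tested genes of the BCL2 family, 2 rose and 1 fell in each line. Bmf, which encodes a BH3-only protein that antagonizes pro-survival BCL2 proteins, had 29.4, 23.6 and 16.1 normalized counts in shRenilla FM and 132.5, 102 and 109.5 in Starv, or 2.31 on the log2 scale (standard error 0.29, adjusted p = 1.7e-04). In shBruce it went from 20.2, 17.8 and 18.8 to 86.8, 174 and 187 (3.00, adjusted p = 2.8e-05). Bbc3, which encodes the BH3-only protein PUMA, rose by 1.34 in shRenilla and by 1.51 in shBruce. Bcl2l1, which encodes the pro-survival protein BCL-XL, fell (-1.06 and -0.92). The medians of the list were -0.11 and 0.03, close to those of all genes (-0.01 and 0.02).

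Of 6 tested caspase genes besides Casp9, 1 rose in each line and none fell, with medians of 0.12 and -0.09. Casp2, an initiator caspase, rose by 0.94 in shRenilla (adjusted p = 0.00314) and by 0.68 in shBruce (adjusted p = 0.0162). Neither Apaf1 nor Cycs, the apoptosome partners of caspase-9, passed with starvation in either line (0.21 and -0.68 in shRenilla, -0.11 and 0.28 in shBruce).

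Among the genes that work with the cIAPs, those that passed with starvation were mostly lower. Of the 16 TNF receptor and NF-kappaB partners, 5 fell and 0 rose in shRenilla, and 7 fell and 1 rose in shBruce, with medians of -0.14 and -0.23. Tnfaip3, which encodes the NF-kappaB inhibitor A20, had 1072, 1154 and 1115 normalized counts in shRenilla FM and 227, 218 and 225 in Starv, or -2.32 on the log2 scale (standard error 0.17, adjusted p = 1.9e-06). It fell by 2.84 in shBruce (adjusted p = 4.2e-07), from 955, 956 and 762 to 84.8, 127 and 152. Nfkbia, which encodes the NF-kappaB inhibitor IκBα, fell in both lines (-1.29 in shRenilla, -0.66 in shBruce), as did Traf1, a TNF receptor adaptor gene (-1.06 and -1.11). Traf2, which recruits the cIAPs, rose by 0.49 in shBruce.

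Of 4 signalling partners of XIAP, 1 rose and 2 fell in shRenilla, and 1 rose and 3 fell in shBruce. Tab1, an activator of the kinase TAK1, rose by 0.60 and 0.67. Nod2, a sensor of bacterial cell wall fragments, fell (-1.15 and -1.64), as did Ripk2, its kinase (-0.66 and -1.09). Map3k7, the TAK1 gene, fell in shBruce (-0.58) and was at -0.26 in shRenilla (adjusted p = 0.236). Of 9 genes for partners and substrates of BRUCE, 1 rose in each line, the autophagy gene Gabarapl1, by 0.60 and 0.71. Naip2, the single tested BIR gene outside the members, did not pass with starvation in either line alone. Nor did Gspt1 and Xaf1, which were listed as IAP antagonists and cofactors. Xaf1 had 653, 876 and 23.8 normalized counts in shBruce FM, so these replicates were far apart. Averaged over lines, Gspt1 fell (-0.26, adjusted p = 0.0263).

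**Figure D5:**
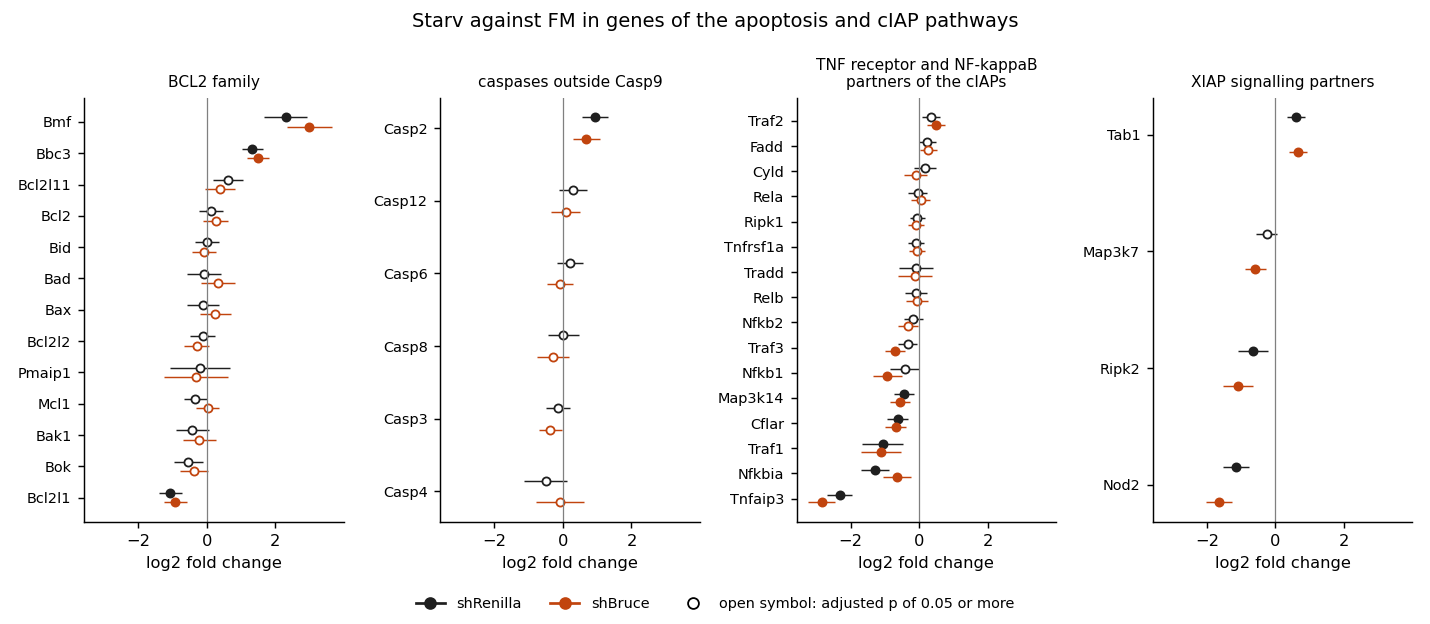
Log2 fold changes of Starv against FM with 95% confidence intervals for the tested genes of the BCL2 family, other caspases, the TNF receptor and NF-kappaB partners of the cIAPs and the signalling partners of XIAP, in shRenilla (black) and shBruce (red), with filled symbols where the adjusted p is under 0.05. Bmf and Bbc3 stand above the rest of their family and Bcl2l1 below it, and Tnfaip3 and Nod2 are the lowest of their lists in both lines.

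Between the lines, 0 of the 71 pathway genes passed in FM. In Starv, 8 were higher and 11 lower in shBruce, in a comparison in which 12.8% of all genes were higher and 11.2% lower. The apoptosome genes went opposite ways, with Cycs (cytochrome c) higher by 1.07 and Apaf1 lower (-0.85). In the BCL2 family, 4 were higher and 0 lower, led by the pro-apoptotic genes Bad (0.76) and Bax (0.75). With the trends removed, none of these 4 passed, and Bad was at 0.22 and Bax at -0.0030. Nfkbia was higher by 1.04 and Traf2 by 0.34, while Tnfaip3 (-0.85) and the deubiquitinase gene Cyld (-0.67) were lower.

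Casp12 (-0.77), Map3k7 (-0.50) and the translation termination gene Gspt1 (-0.35) were lower. Naip2 was lower (-1.10) at 12.1 to 58.8 normalized counts per library, but it belongs to a family of near-identical genes among which reads may be split. Uba6, which encodes a ubiquitin-activating enzyme that works with BRUCE, was lower (-1.12), and Gabarap, an LC3 relative, higher by 0.49. With the trends removed, 8 pathway genes passed in this comparison, and 6 of the 19 were among them: Apaf1, Bub1, Casp12, Nfkbia, Traf2 and Traf3. Of those no longer called, Gabarap was then at 0.09, while Cycs was at 1.28 (adjusted p = 0.0502). The Starv libraries on which these calls rest are those of the Starv comparison above, and they share its limits. Haematopoietic markers, which were also higher in shBruce Starv, summed to at most 1.43 CPM there.

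Genes with the pattern most like that of each member over the 12 libraries were looked for among 10361 genes whose normalized counts averaged at least 50. The correlations are descriptions, since the libraries share the lines, the media and the length trend. For Birc6 they were Tbc1d5 (Pearson's r = 0.98), Usp53 (0.97), Itgav (0.96), Lman1 (0.96) and Zfp217 (0.96), with longest transcripts of 4676 to 7054 bases. For Casp9 they were Dcaf8, Slc1a4 and Zhx2 (0.995, 0.989 and 0.985), and for Xiap Ncapg2, Zmym2 and Fem1c (0.995, 0.992 and 0.989). For Birc2 they were Reck, Uhrf2 and Wdhd1, for Birc3 Abce1, Noc3l and Ap1s2, for Birc5 Emc6, Mrpl15 and Bud31, for Diablo Aven, Snrnp35 and Atp5a1, and for Htra2 Eif5a, Ercc2 and Elp5, all between 0.96 and 0.98. Among the members, Xiap was most like Birc2 (0.86) and most opposite to Diablo (-0.92) and Birc5 (-0.90).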

How the data were processed

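Poly(A) RNA from the 12 MEF samples was sequenced as single-end reads. The authors removed rRNA reads, mapped the rest to mm10 with STAR 2.4.0d and counted reads per gene with HTSeq 0.5.4p3, per the study's methods and processing notes. The deposited values are raw read counts without normalization for 24062 symbols, and 0 columns were left unused. The annotation, strand setting and overlap mode of the counting are not given in the sources used here. For positions and lengths, the GENCODE M21 annotation of GRCm38 was used. Of the symbols, 22724 were found in it as such and 931 under an older name. The guide came from the study's shRNA table.

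The fits used edgeR 4.0.16 and R 4.3.3 (TMM, filterByExpr, 12154 genes tested, a mean for each of the 4 conditions over all 12 libraries, quasi-likelihood test, two-sided, Benjamini-Hochberg adjustment, level 0.05), and intervals are at 95%. The 7 comparisons were the lines in each medium, the media in each line, their interaction and both averages. Exact permutation tests used log2(normalized count + 1). With 3 libraries against 3, their smallest p is 0.1. Alternatives were DESeq2 1.42.0, DESeq2's size factors, limma-voom (limma 3.58.1), other filters on low counts, a fit to only the groups compared, a replicate block, removal of trends with transcript length and GC content from each library (splines with 4 degrees of freedom, over 99.1% of the genes tested), and leaving out each library in turn. The processing was tested on simulated data. Replicates differed beyond counting error (chi-square per degree of freedom 2.18 to 92.3), so each error is an SD or a standard error.

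The members, the gene lists and the trend removal were chosen with earlier results of these data known. The lists were written from general knowledge. An item of these lists is not reported here. Named are the members, genes whose exons overlap them, from each pathway list up to 2 genes that rose and 2 that fell in each of the first 4 comparisons, and the 5 (Birc6) or 3 (others) genes most like a member. Traf3 and Xaf1, which fall outside this rule, and genes listed without a call were named after their values were seen. Figures were made with matplotlib 3.10.9.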

Additional observations from a re-analysis of the deposited data

How the results depend on the processing

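Most member calls kept their direction under all alternatives, but which of them passed depended on few libraries and on the length trend. In FM between the lines, 0 genes passed, against 76 with DESeq2, 7 without a filter, 2 with trends removed, 2 with trends removed and the replicate block, and 597 with the FM libraries alone, and in each of these 1 member passed, Birc6 (-1.75, -1.77, -1.42, -1.42 and -1.75). In Starv between the lines, 2907 genes passed, against 1932 with the replicate block, 974 with trends removed and 1 with both (1 member). With the Starv libraries alone, which then set the spread, 0 genes and 0 members passed (Birc6 -1.99). Chi-square per degree of freedom was 46.4 to 92.3 between shBruce Starv replicates, and 2.18 to 27.4 between replicates of the other conditions. Starvation in shRenilla gave 5013 genes and 5 members with that line's libraries alone and 2564 genes and 3 members with DESeq2. With trends removed it gave 2831 genes and 2 members, and with the block as well 2528 genes and 2 members. In shBruce starvation gave 956 genes and 1 member with that line alone, and 3751 genes and 2 members with trends removed. The line difference averaged over media gave 1671 genes with trends removed and 933 with the block as well (1 member). The replicate block is given here because numbers are shared across conditions. Deviations of same-numbered libraries from their condition means correlated at -0.46 to 0.35. With 3 libraries per condition, such values cannot show whether these libraries share more than a number. With the block, Birc6 was -1.73 in FM and -2.01 in Starv.

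Leaving out 1 library at a time gave 0 to 32 genes and 0 to 1 members in FM, and 0 to 5735 genes and 0 to 6 members in Starv (5735 genes without shBruce Starv replicate 3). For starvation in shRenilla it gave 1149 to 3212 genes and 1 to 5 members, and in shBruce 1855 to 4009 genes and 1 to 2 members. The averaged line difference gave 1396 to 6081 genes and 2 to 7 members, and averaged starvation gave 3499 to 5054 genes and 1 to 4 members. Birc6 lay between -1.92 and -1.63 in FM and between -2.20 and -1.77 in Starv. Values not past the threshold changed sign as follows. Htra2 became -0.080 in FM, -0.094 in Starv, -0.087 averaged and -0.014 in the interaction with trends removed, and -0.079, -0.095, -0.087 and -0.016 with the block as well. Starvation values became 0.00039 for Birc3 in shRenilla with that line alone and 0.010 for Birc5 in shBruce with trends removed. With a library left out, starvation ranged from -0.26 to 0.13 for Birc6 and from -0.10 to 0.051 for Birc3 in shRenilla, and from -0.22 to 0.18 for Birc5 and from -0.36 (without shBruce Starv replicate 3) to 0.33 for Xiap in shBruce. The line difference of Casp9 lay between -0.025 and 0.16 in FM and between -0.078 and 0.028 averaged, and the interaction of Birc2 from -0.47 to 0.0052. The causes were not tested. A fit that leaves out a library assumes that the remaining ones of its condition vary like the others.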
